A study of Mus musculus with 9 samples.

Results

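The data described here are the 3 RNA sequencing libraries of wild-type splenic type 2 conventional dendritic cells (cDC2s), out of 9 libraries in the series. They were chosen by genotype alone, as the wild-type columns of the count table, and no comparison with the knockouts was made. The other 6 libraries come from CD97-deficient cells (the gene Adgre5, listed as Cd97) and from cells whose Gna13, encoding Gα13, was deleted by a Cre recombinase under the CD11c promoter, with a genotype label that also names Adgre5. The labels give strain C57BL/6, tissue spleen and genotype WT for the wild-type libraries, with no age, sex or sorting gate among the labels used here. WT1, WT2 and WT3 below are wild-type replicates 1 to 3 as the sample titles number them. The labels do not state whether each library is a separate mouse, so the spread between libraries may be partly technical. Sex-linked genes, given further on, had a female pattern in WT2 and a largely male pattern in WT1 and WT3.

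Dendritic cells take up antigen, cut it into peptides and show the peptides on MHC molecules to T cells. cDC2s present mainly on MHC class II to CD4 T cells. In the spleen many of them sit in the bridging channels of the marginal zone, depend on the transcription factor Irf4, and include a Notch2-dependent population that carries Esam. The other conventional subset, the cDC1, presents mainly to CD8 T cells and is marked by Xcr1 and Clec9a.

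WT1 held 9581458 counts, WT2 7506704 and WT3 5875891. By these totals, before the scaling that follows, 3 counts in 1 library correspond to 0.313, 0.4 and 0.511 counts per 1000000 (CPM). Levels in CPM use library sizes scaled by trimmed mean of M-values (TMM) factors of 0.97, 1.01 and 1.02. Of 14209 rows in the table, 11249 (79.2%) reached 1 CPM in all 3 libraries, 7916 reached 10 CPM and 1988 reached 100 CPM, while 51 had no count in any of the 3. Protein-coding genes took 88.4% to 90.0% of the counts. The highest row was Rn45s, the precursor of the ribosomal RNAs, with 45147, 60169 and 59006 CPM, and the nuclear noncoding RNA Malat1 followed with 42298, 35038 and 35473 CPM. Together these 2 rows took 8.48%, 9.59% and 9.67% of all counts. The 100 highest rows took 25.4% ± 0.418 (SD, n = 3) and the 1000 highest 57.8% ± 0.375. The libraries ranked genes alike: across the 11249 genes, log2 CPM of each pair of libraries correlated with Pearson's r of 0.971 to 0.977 and Spearman's rho of 0.976 to 0.98. These coefficients run across genes of libraries prepared alike, and genes are not independent replicates. A gene had a 2-fold range where its highest library was at least 2 times its lowest and its mean was at least 10 CPM. Of 8409 genes with that mean, 313 (3.72%) met this. That share is the background for every such count below. Few or no such members in a short list are not read as a narrow range.

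The markers of the labelled cell type were present in all 3 libraries. Itgax, which encodes the integrin chain CD11c, stood at 1434, 1327 and 1552 CPM, from 13318, 10038 and 9337 counts. Flt3, the cytokine receptor on which dendritic cells depend, had 680.3, 545 and 507 CPM. Irf4, the transcription factor of this subset, had 256, 279 and 284 CPM, with all 3 libraries close together. Zbtb46, a transcription factor of the conventional lineage, had 123, 97.7 and 92.1 CPM, with WT1 the highest. Clec4a4, which encodes the lectin recognised by the antibody 33D1, had 168, 133 and 125 CPM, again highest in WT1. Esam, the adhesion molecule of the Notch2-dependent splenic population, had 35.5, 37.02 and 44.4 CPM and was a little higher in WT3. To compare genes of different length, counts were divided by the length of each gene's merged exons and scaled to the same total in each library (1000000), here called the length-scaled level. On that scale Itgax had 1408 ± 122 (SD, n = 3) and ranked 44 of 14018 genes with a length, Clec4a4 had 859 ± 119.8 and ranked 111, and Irf4 had 262 ± 19.3 and ranked 592.

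Some of the other 14 cDC2 markers describe fractions of the subset. Sirpa, which encodes the inhibitory receptor that binds CD47, had 842, 902 and 902 CPM. Notch2 had 731, 667 and 697 CPM, and its nuclear partner Rbpj had 113, 86.6 and 90.4 CPM. Dtx1, a Notch target, had 226, 201 and 235 CPM. Itgam, which encodes CD11b, had 467, 456 and 497 CPM. Cd4, carried by many splenic cDC2s, had 813, 516 and 558 CPM, with WT1 apart from the other two. Relb, an NF-kB subunit, had 159, 227 and 207 CPM, and Klf4 had 45.96, 51.3 and 47.4 CPM. Markers of other cDC2 fractions or tissues had the lowest length-scaled levels, from 3.37 ± 0.381 for Mgl2 to 28.02 ± 1.88 for Tbx21. Clec12a had 14.4, 26.3 and 9.97 CPM and Cx3cr1, the fractalkine receptor, 4.84, 15.5 and 7.98 CPM, both highest in WT2. Tbx21, which encodes T-bet, had 14.6, 15.9 and 13.96 CPM. The lectin genes Clec10a, at 3.55, 3.83 and 2.99 CPM, and Mgl2, at 1.72, 1.45 and 1.33 CPM, were low in all 3 libraries. Cd209a, a lectin of the DC-SIGN family, had 575, 178 and 195 CPM, so that WT1 was 3.23 times the lowest library. Of the 20 markers, 20 had a row, 17 had a mean of at least 10 CPM, and 2 of the 17 had a 2-fold range, Cd209a and Clec12a, against 3.72% of all genes. Cx3cr1 ranged as widely but had a lower mean.

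**Figure D1:**
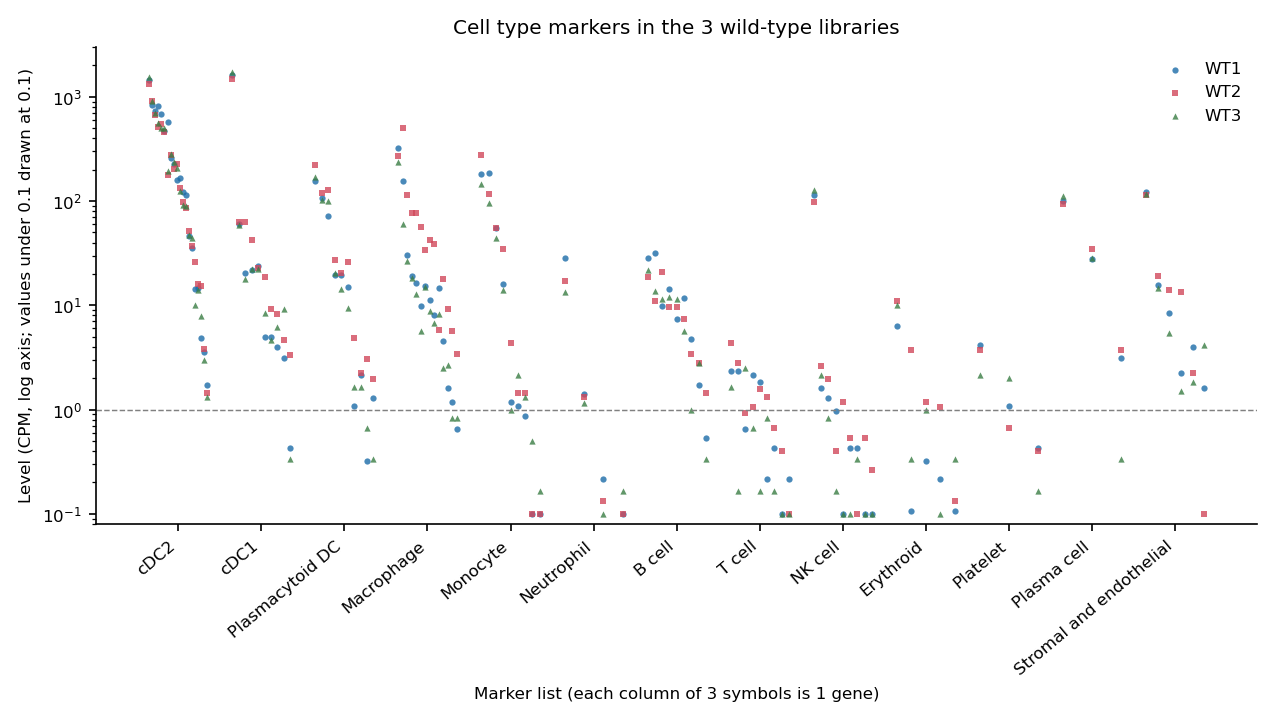
Level of every marker gene of 13 cell types in each wild-type library, in CPM on a log axis; each column of 3 symbols is 1 gene, ordered by mean level within its list, and the dashed line is 1 CPM. The cDC2 list reaches above 1000 CPM with Itgax, while the T cell, NK cell, erythroid and platelet lists lie far lower apart from Klrd1.

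Markers of other cells spanned a wide range of levels, and those of macrophages are given further on. Of the cDC1 genes, Xcr1 had 3.98, 8.198 and 6.15 CPM, Clec9a 20.6, 62.8 and 17.95 CPM and Irf8 21.96, 42.3 and 22.1 CPM. Irf4 thus exceeded Irf8 in every library, by length-scaled levels of 262 ± 19.3 and 19.2 ± 7.94 (SD, n = 3). Wdfy4, listed with cDC1s for its role in cross-presentation, was high at 1618, 1486 and 1739.7 CPM, and Batf3, a cDC1 transcription factor, had 60.7, 62.5 and 58.7 CPM. Among plasmacytoid dendritic cell genes the transcription factors Runx2, at 155, 224 and 169 CPM, and Tcf4, at 108, 120.5 and 102 CPM, stood beside Siglech, the surface marker of that type, at 14.9, 26.05 and 9.48 CPM. By length-scaled level Siglech had 23.3 ± 11.9 and Tcf4 18.9 ± 1.66, whose order was not the same in all 3 libraries. Among monocyte genes Csf1r, the receptor for the macrophage growth factor, had 179.9, 278 and 145 CPM, and Ly6c2, a marker of classical monocytes, 1.18, 4.36 and 0.997 CPM. B cell genes summed to 110.1, 85.02 and 79.96 CPM over 9 rows, with Cr2 at 28.2, 18.6 and 21.6 CPM and Blk at 31.6, 11.1 and 13.6 CPM. T cell genes summed to 10.2, 13.1 and 6.15 CPM, with Cd3e at 2.37, 2.78 and 0.166 CPM. Klrd1, which encodes CD94, made up nearly all of the NK cell list at 115, 98.9 and 129 CPM, while Ncr1 had 0, 1.19 and 0 CPM. The neutrophil list held Csf3r at 28.4, 16.9 and 13.3 CPM, and S100a9 had 0.215, 0.132 and 0 CPM. Erythroid genes summed to 7.104, 17.1 and 11.6 CPM, with Alas2, of heme synthesis, at 6.35, 10.98 and 9.97 CPM, and platelet genes to 5.705, 4.76 and 4.32 CPM, with Gp1ba at 4.198, 3.702 and 2.16 CPM. Xbp1, at 100.4, 92.8 and 112 CPM, and Prdm1, at 27.6, 35.04 and 28.4 CPM, are on the plasma cell list, whose joining chain gene Igj had 3.12, 3.702 and 0.332 CPM. Pecam1, at 123, 114 and 117 CPM, and Vwf, at 15.7, 18.9 and 14.6 CPM, are on the stromal and endothelial list, whose endothelial cadherin gene Cdh5 had 3.98, 2.25 and 1.83 CPM.

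The genes at the top of the length-scaled order were mostly those of antigen presentation and of the actin cytoskeleton. Cd74, the invariant chain that guides MHC class II to the endosome, was first with 31489 ± 1245 (SD, n = 3), at 10972, 11444 and 11304 CPM. B2m, the light chain of MHC class I, had 28811 ± 2688, and Malat1 25289 ± 2238. The class II chain genes H2-Aa, H2-Ab1 and H2-Eb1 had length-scaled levels of 10608 ± 491, 10223 ± 578 and 7876 ± 289.8. Between them stood Actb, which encodes beta actin, with 9001 ± 875, and Tmsb4x, which encodes an actin-binding peptide, with 8264 ± 611. H2-K1 followed with 3753 ± 179, and Tyrobp, the signalling adaptor DAP12, with 3219 ± 315.

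Ranks 11 to 26 on that scale had length-scaled levels between 3123 ± 66.5 for the translation factor Eef1a1 and 1800.5 ± 370.1 for Havcr2, which encodes TIM-3. They included the protease gene Ctss at 3120.4 ± 328, S100a4 at 2986 ± 558, Sh3bgrl3 at 2955 ± 241, the peroxidase gene Gpx1 at 2928 ± 235 and the lipid kinase gene Pip4k2a at 2881 ± 80.2. Ifi30, the thiol reductase of antigen processing, had 2862 ± 94.9, H2-D1 2760.0 ± 118, the interferon-induced Ifitm3 2188 ± 312, and the Fc receptor gamma chain gene Fcer1g 2129.9 ± 203. Evi2b had 2128 ± 189.6 and Rgs2, a regulator of G protein signalling, 1999.6 ± 226. Hsp90ab1, a cytosolic chaperone, had 2221 ± 1347, the widest SD relative to its mean among these 25 genes. Mir142 ranked 25 only through its annotated length, which is that of a hairpin shorter than a sequencing fragment. It had 18.1, 26.6 and 35.2 CPM, and the mature microRNA was not measured. With the longest transcript as the length, 20 of these 25 genes stayed among the 25 highest.

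**Figure D2:**
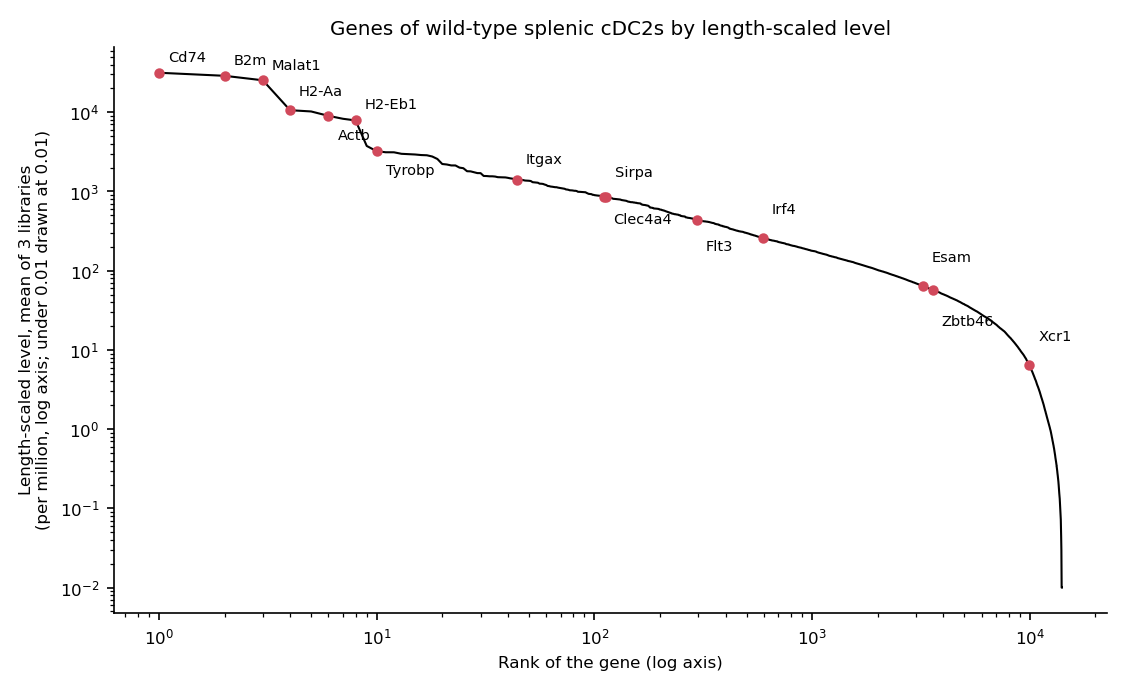
Length-scaled level (mean of 3 wild-type libraries) against the rank of each gene, both on log axes, with named genes as red points. Cd74, B2m and Malat1 lead, and the labelled cDC2 markers lie between Itgax at rank 44 and Zbtb46 at rank 3579.

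The levels were concentrated: 632 of 14018 genes held 50% of the length-scaled level, the 10 highest held 13.9%, and the median gene had 20.8. The MHC class II presentation list was the largest of 42 families, with 6.56%, 6.63% and 6.89% of the length-scaled level in WT1, WT2 and WT3. Cd74 and the 3 chains H2-Aa, H2-Ab1 and H2-Eb1 made up 6.02% ± 0.16 (SD, n = 3). The peptide editors that load class II were lower. H2-DMb1 had a length-scaled level of 490.2 ± 85.9, and the DM inhibitors H2-Oa and H2-Ob had 684 ± 111 and 601 ± 131. H2-DMb1 has a close copy, H2-DMb2, so its counts are uncertain. All 16 members had a mean of at least 10 CPM and 0 of them had a 2-fold range. The widest were Rfxank, a subunit of the factor that binds class II promoters, at 8.61, 10.4 and 14.5 CPM, and H2-Ob, at 721, 526 and 814 CPM. In the length-scaled order of the 6 highest members, 4 of 5 neighbouring pairs kept their order in all 3 libraries, and only H2-Aa and H2-Ab1 crossed.

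The promoters of H2-Aa and H2-Eb1 are shown because these genes are among the highest in the cells. Class II promoters carry a conserved module whose last element, the Y box, holds an inverted CCAAT. The stretches are from RefSeq (GRCm38.p6), 110 bases that end 1 base before the annotated start, with matches to ATTGG or its reverse complement CCAAT in capitals.
H2-Aa (chr17:34287824-34287933, minus strand): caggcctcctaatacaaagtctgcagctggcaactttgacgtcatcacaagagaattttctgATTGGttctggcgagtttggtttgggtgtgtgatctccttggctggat
H2-Eb1 (chr17:34305757-34305866, plus strand): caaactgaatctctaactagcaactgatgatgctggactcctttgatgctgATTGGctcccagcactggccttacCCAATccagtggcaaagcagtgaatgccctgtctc
ATTGG began 48 bases before the start in H2-Aa and 59 bases before it in H2-Eb1, and H2-Eb1 also held CCAAT 35 bases before its start. These words were sought on either strand in the 250 bases before the start. They were present in 9 of the 11 class II list members with a RefSeq window (81.8%), against 34.5% of 27025 genes. In the heat shock list, described further on, 11 of 19 members with a window held one (57.9%). The words were thus not particular to the class II list. A match is a description of the letters and not of binding.

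By the mean of the 3 libraries MHC class I genes followed class II and ribosomal proteins in the order of families, although they were ahead of ribosomal proteins in WT1 and the actin list was ahead of them in WT3 and with the longest transcript as length. They stood at 3.98% ± 0.25 (SD, n = 3) of the length-scaled level over 21 rows. B2m alone accounted for most of it, at 5602, 5585 and 4635 CPM, with WT3 the lowest. H2-K1 had 2365, 2238 and 2431 CPM and H2-D1 1622, 1452 and 1470.05 CPM, although reads of class I heavy chains can be shared among near-identical genes. H2-M3 had 157, 159.7 and 154 CPM, and the proteasome activator genes Psme1 and Psme2 had 266, 308 and 326 CPM and 132, 155 and 145 CPM. The widest members were Nlrc5, the class I transactivator, at 277, 189 and 187 CPM, the chaperone gene Calr at 176, 188 and 131 CPM and the peptide transporter gene Tap1 at 183, 179 and 246 CPM. None of the 21 had a 2-fold range.

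Proteases and their inhibitors, which cut antigen in endosomes, took 0.714% ± 0.058 of the length-scaled level. Ctss, which encodes the cathepsin that trims the invariant chain, was the highest at 931, 984 and 789 CPM. Cst3, which encodes the inhibitor cystatin C, had 299.995, 284 and 273 CPM, Ctsz 301, 272 and 248 CPM and Ctsh 743, 695 and 666 CPM. These were alike in the 3 libraries, whereas other members were highest in WT2. Ctsb had 409, 632 and 358 CPM, Ctsd 89.3, 147 and 69.3 CPM, Ctsl 11.3, 24.7 and 11.6 CPM and Lgmn, a lysosomal endopeptidase gene, 31.97, 49.3 and 22.8 CPM. The last 3 of these are the 3 of 12 members with a 2-fold range, against 3.72% of all genes. Lysosomal genes took 0.737% ± 0.033 of the length-scaled level, led by Laptm5 at 1056, 1148 and 1228 CPM and Cd68 at 275, 289.9 and 264 CPM. Of 34 lysosomal genes with a mean of at least 10 CPM, 0 had a 2-fold range.

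**Figure D3:**
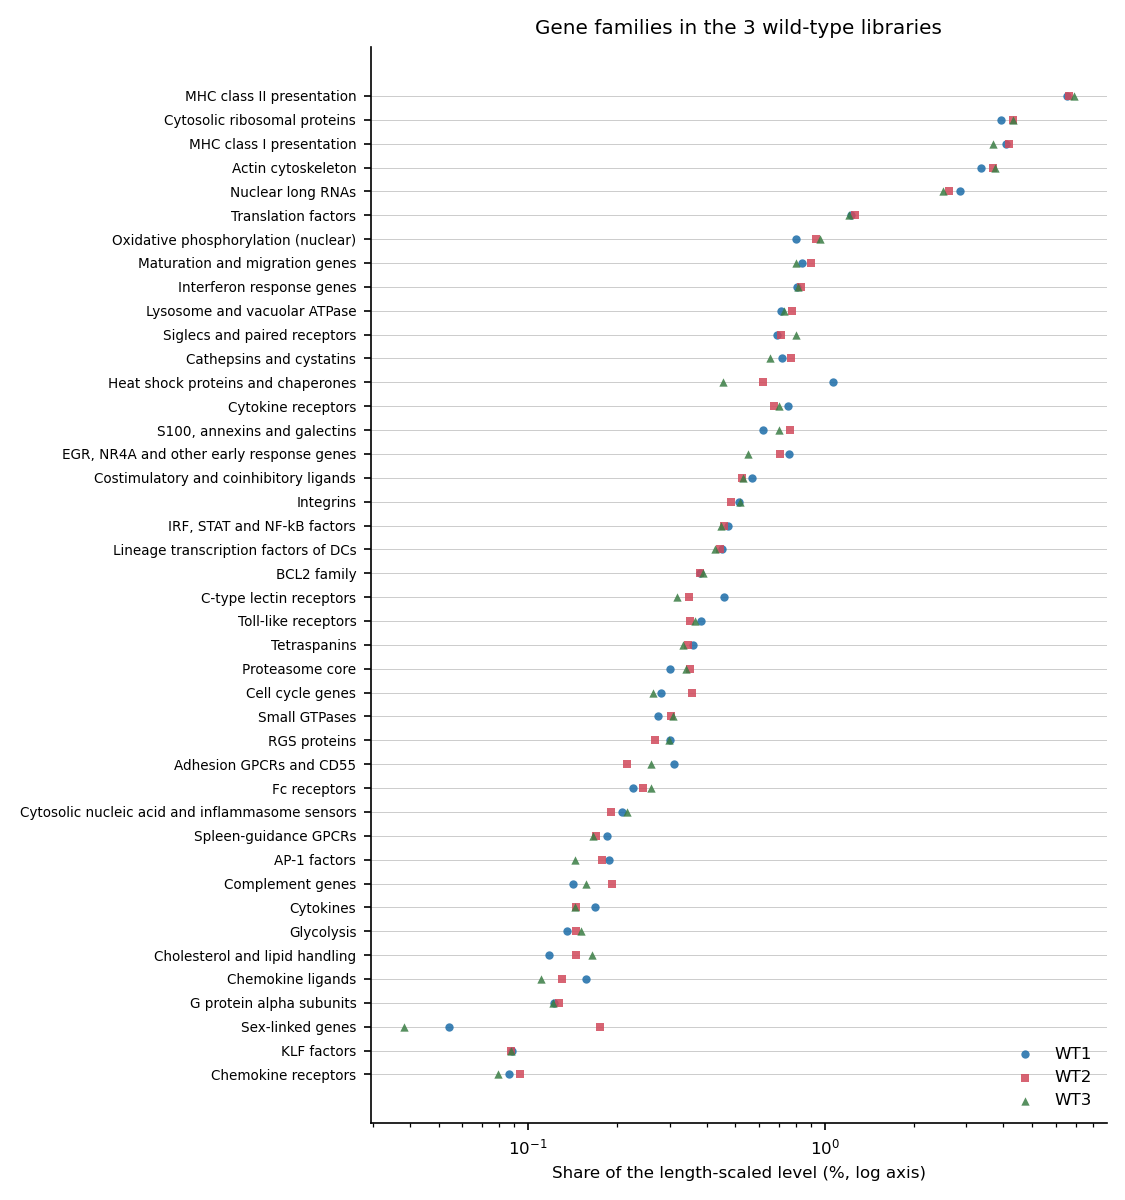
Share of the length-scaled level (%, log axis) held by each of 42 gene families in WT1, WT2 and WT3. MHC class II presentation leads in all 3 libraries, and the widest gaps between libraries are in the sex-linked genes and the heat shock proteins.

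Receptors for microbes were read by family. Toll-like receptors and their partners took 0.366% ± 0.017 of the length-scaled level (SD, n = 3), and all 21 had a row. Unc93b1, which carries the nucleic acid sensing receptors to endosomes, had 570.5, 417 and 470.5 CPM. Cd180, a relative of the receptors that modulates lipopolysaccharide responses, had 679, 692 and 734 CPM, and its partner Ly86 243, 214 and 204 CPM. Tlr1 had 299.7, 296 and 285 CPM, Tlr9, a DNA sensor, 244, 221 and 261 CPM, and Tlr13, a sensor of bacterial ribosomal RNA, 332, 266 and 264 CPM. Tlr11 had 82.1, 57.7 and 69.5 CPM. Tlr4, the lipopolysaccharide receptor, was low at 15.8, 18.8 and 11.3 CPM, and Tlr3, which binds double-stranded RNA, had 23.8, 23.01 and 22.3 CPM. On the length-scaled scale, Tlr9 was at 327 ± 28.7 and Tlr4 at 12.9 ± 3.14. None of the 17 members with a mean of at least 10 CPM had a 2-fold range.

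Cytosolic sensors took 0.204% ± 0.013 of the length-scaled level. Aim2, a DNA sensor, had 271, 240.0 and 289 CPM, Nod1 270.1, 247 and 289.9 CPM, the inflammasome protease gene Casp1 107, 102 and 97.1 CPM, and Nlrp3 105, 85.2 and 106 CPM. Tmem173, which encodes STING, had 103, 104 and 115 CPM and the RNA sensor gene Ifih1 174, 177 and 167 CPM. All 18 with a row had a mean of at least 10 CPM and 0 had a 2-fold range.

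C-type lectin receptors varied more: 7 of 16 members with a mean of at least 10 CPM had a 2-fold range, against the 3.72% of all genes. Clec4a4 was joined by its neighbours Clec4a1, at 198, 156 and 192 CPM, and Clec4a3, at 52.9, 69.6 and 36.1 CPM, and by Clec2d, a ligand of NK cell receptors, at 123, 151 and 131 CPM. Mrc1, the mannose receptor gene typical of macrophages, had 57.05, 156 and 12.8 CPM, a range of 12.2-fold with WT2 the highest. Clec9a had a range of 3.5-fold, also with WT2 the highest, and Clec4g, at 76.5, 28.96 and 39.9 CPM, was highest in WT1. The Fc receptor list rested on Fcer1g, at 367, 392 and 428 CPM. The IgG receptor genes were low by comparison, with length-scaled levels of 31.9 ± 7.22 for Fcgr4, 18.6 ± 12.2 for Fcgr3 and 15.4 ± 6.86 for Fcgr2b, against 2129.9 ± 203 for Fcer1g. Among paired receptors, Cd300a had 617, 625 and 926 CPM with WT3 apart, Sirpb1a 329, 304 and 332 CPM and Siglecg 310.4, 293 and 317 CPM.

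Genes that place the cells within the spleen and move them were read next. Among chemokine receptors, Ccr7, which guides dendritic cells into T cell areas, was the highest at 172, 200.2 and 179 CPM, with a length-scaled level of 437 ± 39.97. Ccrl2 had 85.7, 72.2 and 69.5 CPM, Ccr6 30.03, 26.98 and 25.1 CPM and Cxcr6 15.3, 12.7 and 21.1 CPM. Cxcr4 had 62.3, 44.7 and 27.4 CPM, lower in WT3 than in WT1. Of 23 listed receptors 15 had a row and 9 a mean of at least 10 CPM, 4 of which had a 2-fold range, against 3.72% of all genes. Ccr3 at 5.597, 27.2 and 2.33 CPM and Ccr2 at 15.9, 34.6 and 13.96 CPM were highest in WT2. Among other receptors with roles in splenic positioning, Gpr183, which senses oxysterols and draws cDC2s to the bridging channel, had 198, 195 and 148 CPM. Gpr132 had 278, 231 and 297 CPM, Gpr35 448, 345 and 387 CPM, the proton sensor gene Gpr65 93.3, 84.8 and 69.7 CPM, P2ry10 125, 82.4 and 85.4 CPM and P2ry6 41.7, 38.6 and 36.6 CPM. All 5 neighbouring pairs of these 6 kept their length-scaled order in every library. P2ry13 had 7.21, 33.1 and 9.64 CPM and was the 1 of 10 members with a 2-fold range, against 3.72% of all genes.

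Cd97, the receptor deleted in other animals of the study, had 1486, 875 and 1271 CPM in the wild-type cells, a length-scaled level of 1513 ± 369 (SD, n = 3) and rank 37. It led the adhesion G protein-coupled receptors, ahead of Emr1, which encodes F4/80, at 399 ± 54.4 on the same scale. Gna13 had 224, 222 and 182 CPM. By length-scaled level, Gna13 at 153 ± 15.4 stood below the inhibitory subunit genes Gnai2, at 431 ± 31.9, and Gnai3, at 284 ± 18.3, and near Gnas and Gnaq, from which its order was not the same in all 3 libraries. Gna12, the closest relative of Gna13, had 26.3 ± 2.41. Rgs2 was the highest of the regulators of G protein signalling with 1513, 1399 and 1713 CPM, and Rgs19 had 143, 139 and 162 CPM. Rgs1 had 687, 435 and 167 CPM, a range of 4.12-fold. It was the 1 of 8 members with a 2-fold range, against 3.72% of all genes.

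Among the small GTPases that act on the cytoskeleton downstream of Gα13 and other inputs, Cdc42 was the highest by length-scaled level at 864 ± 53.8. Rhog followed at 491 ± 45.9, Rac1 at 456 ± 35.4, the atypical member Rnd3 at 419 ± 36.4 and Rac2 at 411 ± 54.6, while Rhoa had 137 ± 13.9. None of the 11 with a mean of at least 10 CPM had a 2-fold range. The actin list took 3.6% ± 0.21 of the length-scaled level. After Actb and Tmsb4x came Arpc2, of the Arp2/3 complex, at 1747 ± 104, the bundling protein gene Lcp1 at 1486 ± 157, profilin, Pfn1, at 1223 ± 138 and Actr3 at 1174 ± 63.9. Ahnak had 82.1, 137 and 42.1 CPM. Of 52 actin genes with a mean of at least 10 CPM it alone had a 2-fold range (1.92%), against 3.72% of all genes. Integrin genes took 0.506% ± 0.021 of the length-scaled level, with Itgax first, then the beta 2 chain gene Itgb2 at 1245 ± 74.6, Itga4 at 899 ± 119, Itgam at 443 ± 25.4, Itgb1 at 376 ± 21.6 and Itgb7 at 259 ± 6.63. That order was the same in all 3 libraries for all 5 neighbouring pairs. Itgb3, at 134, 110.4 and 48.9 CPM, Itga9, at 36.6, 53.3 and 23.9 CPM, and Itgad, at 27.4, 59.1 and 41.4 CPM, were the 3 of 12 with a 2-fold range, against 3.72% of all genes.

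On the list of costimulatory and coinhibitory genes Havcr2 had the highest length-scaled level, with 1309.6, 861 and 963 CPM. Cd274, which encodes PD-L1, had 596, 621 and 584 CPM, Pdcd1lg2, for PD-L2, 81.6, 105 and 109.9 CPM, Cd48 167, 192 and 191 CPM and Icosl, the ligand of ICOS, 604, 603 and 591 CPM. Icam1 had 221, 223 and 164 CPM. None of the 15 costimulatory and coinhibitory genes with a mean of at least 10 CPM had a 2-fold range. Of 36 cytokine genes listed 26 had a row and 15 reached 1 CPM in all 3 libraries. Il1b was the highest by length-scaled level at 526 ± 89.1, with 259, 183 and 199 CPM. Tnf had 84.6, 61.9 and 55.03 CPM, Ebi3 57.05, 39.1 and 42.2 CPM, Il18 25.8, 32.7 and 26.8 CPM, Ltb 36.9, 50.1 and 35.1 CPM and Il16 211, 159 and 191 CPM. Among chemokine ligands Ccl5 led at 189, 148 and 159 CPM and Cxcl16 had 58.02, 74.98 and 70.3 CPM. Ccl3 had 43.7, 20.8 and 9.81 CPM and Ccl4 17.3, 7.67 and 3.99 CPM, both highest in WT1 and lowest in WT3. Of 8 ligands with a mean of at least 10 CPM, 5 had a 2-fold range, against 3.72% of all genes.

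The receptors through which the cells receive cytokine signals took 0.708% ± 0.039 of the length-scaled level. Il2rg, the chain shared by several interleukin receptors, had 517, 561 and 519 CPM, the interferon gamma receptor gene Ifngr1 606, 444 and 531 CPM and Il10ra 519.7, 382 and 459.8 CPM. Kit, the stem cell factor receptor, had 784, 614 and 727 CPM, and Csf2ra, for the GM-CSF receptor, 227, 189 and 232 CPM. The 6 highest members, Flt3 among them, kept their length-scaled order in all 3 libraries. The widest of the family was the decoy receptor gene Il1r2, at 30.4, 9.39 and 22.3 CPM, with WT2 the lowest.

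Among transcription factors of the lineage Ikzf1 was the highest by length-scaled level at 708 ± 18.6, followed by Etv6 at 417 ± 41.9, Cbfb at 325 ± 10.3, Notch2 at 304 ± 10.2, Id2 at 299 ± 32.2 and Runx3 at 285 ± 34.6. Of 30 lineage factors with a mean of at least 10 CPM, Myb alone had a 2-fold range, at 12.1, 19.3 and 4.65 CPM, a share of 3.33% that is near the 3.72% of all genes. Of 34 with a mean of at least 1 CPM, 25 (73.5%) differed beyond counting error by the test described further on, against 48.5% of all genes. That share depends on level, being 51.6% of genes from 30 to 100 CPM and 71.2% from 100 to 300 CPM. It was not compared at matched level, so 73.5% is not read as a wider spread of these factors. In the families that answer to cytokines and microbes, Rel, an NF-kB subunit, had 828, 657 and 637 CPM, Irf5 188, 154 and 178 CPM and the inhibitors Nfkbie and Nfkbiz 211, 195 and 227 CPM and 337, 279 and 259 CPM. Klf6 led the KLF factors at 422, 376 and 376 CPM and Klf2 had 53.7, 54.7 and 60.8 CPM. Interferon response genes took 0.817% ± 0.016 of the length-scaled level. After Ifitm3 came Ifitm2 at 703 ± 55.8, Ifitm6 at 590.3 ± 107 and the GTPase gene Gbp8 at 419.5 ± 62.7. Of 40 interferon response genes with a mean of at least 10 CPM, 0 had a 2-fold range. Genes that rise as dendritic cells mature were also expressed at baseline. Tmem123 had 923, 1076 and 789.8 CPM, Apol7c 369.96, 403 and 319 CPM and Cd83, a surface marker of mature cells, 305, 323 and 326 CPM, whereas Ccl22, a chemokine of mature cells, had 7.53, 16.7 and 5.82 CPM.

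Housekeeping families gave a view of the state of the cells. Cytosolic ribosomal protein genes took 4.18% ± 0.22 of the length-scaled level, and 0 of 78 had a 2-fold range, although their reads can be shared with pseudogenes. Translation factors took 1.23% ± 0.025, with Eef1a1, Eef2 at 1371 ± 64.03 and Pabpc1 at 1019 ± 60.3 on the length-scaled scale. Nuclear-encoded genes of oxidative phosphorylation took 0.901% ± 0.089 of the length-scaled level, lowest in WT1 at 0.799%, and the ATP synthase gene Atp5b led at 819.9, 1020.2 and 889 CPM. Glycolysis genes took 0.144% ± 0.0083, led by Eno3 at 127, 136 and 131 CPM and Ldha at 205, 223 and 228 CPM, with Gapdh uncertain because of its many copies. Proliferation genes were well expressed. Mki67, present in cycling cells, had 955, 1013 and 729 CPM and Top2a, the topoisomerase of dividing cells, 383, 429 and 261 CPM. The 47 cell cycle genes summed to 3524, 4166 and 2994 CPM, highest in WT2 and lowest in WT3, and 42 of 42 members with a mean of at least 10 CPM were highest in WT2. The share of all genes highest in WT2 is not given here. Cdc20, at 8.29, 17.1 and 12.3 CPM, was the 1 of 42 with a 2-fold range (2.38%), against 3.72% of all genes. Among survival genes Mcl1 had 1255, 972 and 1163 CPM and the BH3-only gene Pmaip1 352, 351 and 353 CPM.

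The spread between the libraries was compared with counting error. Of 11931 genes with a mean of at least 1 CPM, 5785 (48.5%) differed between the 3 libraries beyond counting error (chi-square test of homogeneity with 2 degrees of freedom, Benjamini-Hochberg adjusted p under 0.05). That test compares these libraries, not conditions, and deeper genes pass it more readily. Between 10 and 30 CPM the median SD was 14.5% of the mean against 8.66% from counting alone, and 41.3% of genes passed. At 300 CPM and above these were 8.61%, 1.71% and 89.7%. The common biological coefficient of variation, which leaves counting error out, was 0.174 over 11026 genes (edgeR). In the MHC class II list 14 of 16 members passed (87.5%), and in the Toll-like receptor list 14 of 21 (66.7%). Neither share was compared at matched level, so they are not read as results about these families. The 2-fold ranges were shared out unevenly. WT2 was the highest library for 135 of the 313 genes, WT1 for 113 and WT3 for 65, and WT3 was the lowest for 173. For genes without a 2-fold range these shares are not given here. Counts of list members highest or lowest in a library, above and below, therefore lack that background. With WT1, WT2 or WT3 left out, 189, 147 or 148 genes had a 2-fold range and 3206, 3881 or 3853 differed beyond counting error, as fewer libraries leave fewer pairs to differ.

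**Figure D4:**
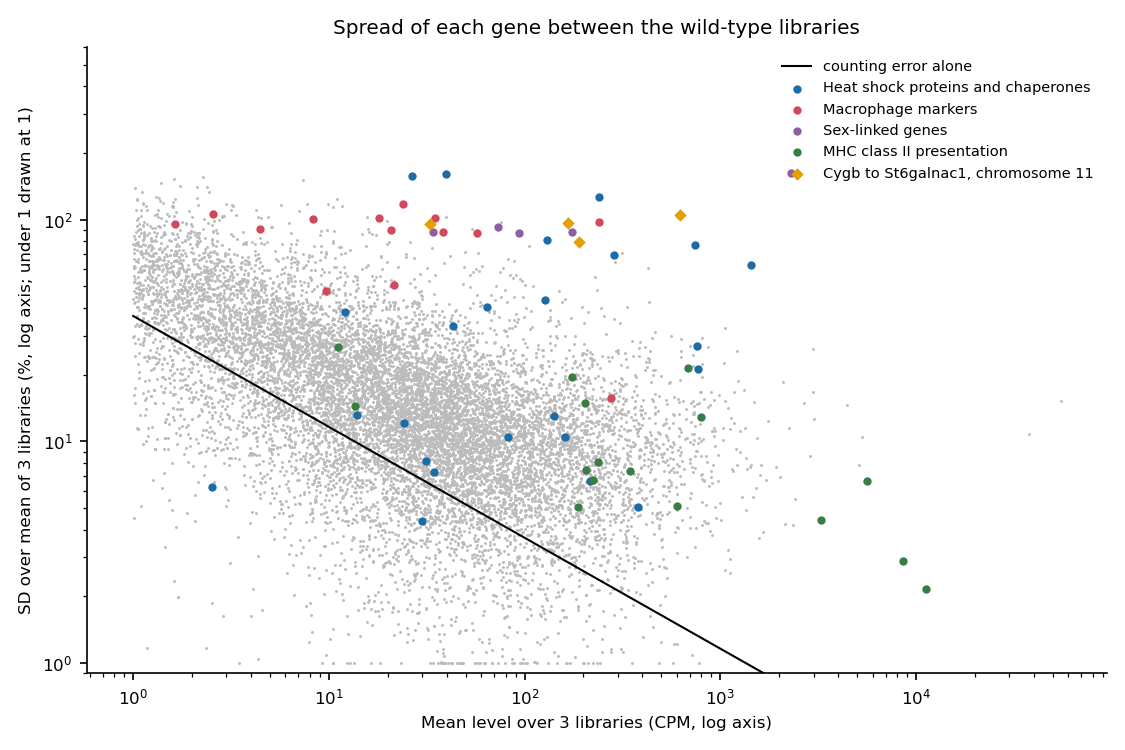
SD over mean of the 3 wild-type libraries (%) against mean CPM for every gene with a mean of at least 1 CPM, on log axes, with the black line marking counting error alone. MHC class II genes lie low at high level, while most macrophage markers, several heat shock genes, the sex-linked genes and 4 neighbouring chromosome 11 genes lie at the upper edge.

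At the even end, the 10 genes with the smallest SD of log2 CPM among 2185 genes of at least 100 CPM were Hfe, Hcls1, Arhgap17, Pmaip1, Marcks, Lrrk2, Sdf4, Hnrnpul1, Cd47 and Slc25a3. Hfe, of iron regulation, had 101, 101 and 101 CPM. Cd47, the ligand of Sirpa, had 577, 577 and 569 CPM, and Lrrk2, a kinase gene, 780.3, 775 and 771 CPM. Marcks, an actin-linked substrate of protein kinase C, had 485, 486 and 482 CPM. The SD of each of the 10 was below what counting error alone gives on average, so the order among them carries no information.

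Heat shock genes stood apart in WT1. The list of 24 genes with a row summed to 8783, 4965 and 3618 CPM, and 10 of 23 with a mean of at least 10 CPM had a 2-fold range, against the 3.72% of all genes. The inducible chaperones Hspa1a and Hspa1b, whose near-identical sequences make the split of reads between them uncertain, summed to 188 CPM in WT1, 7.80 CPM in WT2 and 2.99 CPM in WT3. Hsph1, a nucleotide exchange factor for them, had 591, 86.2 and 46.5 CPM. Hspa8, the constitutive relative, had 1367, 636 and 235 CPM, and the co-chaperone gene Dnaja1 251, 75.6 and 63.7 CPM. WT1 was the highest library for each of these and WT3 the lowest. The cytosolic chaperone genes Hsp90aa1 and Hsp90ab1 had 511, 204 and 142 CPM and 2444, 1086 and 754 CPM, and the mitochondrial chaperonin genes Hspd1 and Hspe1 had 191, 104 and 87.9 CPM and 59.5, 35.04 and 34.6 CPM. Chaperones of the endoplasmic reticulum differed less, with Hspa5 at 917, 789 and 593 CPM and Hsp90b1 at 963, 770.2 and 552 CPM, and Hspa4 had 401, 370.2 and 365 CPM. Across all 23 genes WT1 was the highest library for 19. WT1 also had the largest total count, and the part of depth in this was not tested. With WT1 left out the highest sum was 1.37 times the lowest, against 2.43 times with all 3 libraries.

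Inducible heat shock genes are textbook targets of the heat shock factor, which binds inverted repeats of GAA. Promoter stretches of 4 genes that were highest in WT1 are shown. The sequences are 110 bases from RefSeq (GRCm38.p6), taken from the 250 bases before the annotated start, with GAANNTTC or TTCNNGAA in capitals, each of which reads the same on both strands.
Hspa1a (chr17:34972181-34972290, minus strand): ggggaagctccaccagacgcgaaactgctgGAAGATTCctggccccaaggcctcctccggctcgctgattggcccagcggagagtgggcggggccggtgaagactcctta
Hsph1 (chr5:149636337-149636446, minus strand): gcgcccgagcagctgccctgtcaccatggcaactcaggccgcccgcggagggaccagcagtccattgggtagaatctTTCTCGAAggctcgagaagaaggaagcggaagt
Dnaja1 (chr4:40722314-40722423, plus strand): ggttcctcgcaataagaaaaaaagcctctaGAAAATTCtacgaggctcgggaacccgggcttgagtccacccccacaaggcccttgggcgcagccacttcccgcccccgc
Hspe1 (chr1:55088029-55088138, plus strand): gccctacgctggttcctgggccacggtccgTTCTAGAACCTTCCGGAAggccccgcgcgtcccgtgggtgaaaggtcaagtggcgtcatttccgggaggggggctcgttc
Hspa1a, Hsph1 and Dnaja1 each held 1 match, and Hspe1 held 3 overlapping matches in a row, which form a run of alternating units. The windows of Hspa1a and Hspa1b shared 247 of 250 bases. A match was present in 4 of 7 heat shock list members that had a RefSeq window and a highest library at least 2 times the lowest, in 2 of 12 other members with a window, and in 12.9% of 27025 genes. Both Hspa1a and Hspa1b are among those 4. Of the heat shock members with a 2-fold range, Hspd1, Dnajb1 and Dnajb4 held no match in their first listed window. In the MHC class II list, where no member had a 2-fold range, 4 of 11 members with a window (36.4%) held a match, H2-Aa among them. The match was thus not particular to the heat shock list.

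Early response genes, which cells induce within minutes of a stimulus, were lowest in WT3. Fos, an AP-1 subunit, had 138, 103 and 24.9 CPM, Fosb 66.6, 47.7 and 10.6 CPM and Jun 271, 208 and 113 CPM. Egr1, a zinc finger factor induced by the same signals, had 453, 330.3 and 86.9 CPM, and Egr2 29.6, 24.3 and 11.6 CPM. Ptgs2, the inducible cyclooxygenase gene, had 69.4, 69.8 and 8.81 CPM, alike in WT1 and WT2. Fos, Fosb and Jun belong to the AP-1 list below, and Ptgs2 is on neither list. The early response list summed to 5950.4, 5346 and 4122 CPM, and 16 of its 20 members with a mean of at least 10 CPM were lowest in WT3. The difference was large only for some members. The RNA decay factor Zfp36 had 1015, 976 and 598 CPM, Dusp1, a phosphatase of MAP kinases, 542, 449.98 and 319.7 CPM, Nr4a1 184, 118 and 94.9 CPM, Btg2 545, 391 and 355 CPM, Ier5 761, 767 and 629 CPM and Btg1 992, 935 and 897 CPM. Of the 20, 2 had a 2-fold range, and so had 6 of 18 AP-1 list members, against 3.72% of all genes. The AP-1 list was split, with 11 of the 18 lowest and 6 highest in WT3. Junb, at 54.4, 57.8 and 65.3 CPM, and Atf4, at 79.7, 86.7 and 100.4 CPM, were among those highest in WT3. WT3 also had the smallest total count, and its part in this was not tested.

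Macrophage genes were highest in WT2. Of the 14 markers, 8 of 9 with a mean of at least 10 CPM had a 2-fold range, against 3.72% of all genes. Vcam1, an adhesion molecule of red pulp macrophages, had 155, 506 and 59.8 CPM, and Hmox1, which breaks down heme, 30.4, 115 and 26.8 CPM. The iron exporter gene Slc40a1 had 16.3, 76.03 and 12.8 CPM, Mertk, a receptor for dying cells, 9.903, 55.9 and 5.65 CPM, and Cd5l 8.07, 39.1 and 6.82 CPM. The 3 complement chain genes C1qa, C1qb and C1qc together had 34.8, 138 and 29.8 CPM. Spic, the transcription factor of red pulp macrophages, had 15.3, 33.98 and 15.1 CPM. Without Emr1, which was high and even at 321, 269 and 236 CPM, the other 13 genes summed to 288, 987 and 169 CPM, and 12 of the 13 were highest in WT2. The exception was Cd209b, a marginal zone macrophage gene, at 14.7, 5.82 and 8.31 CPM. Other genes that macrophages share were also highest in WT2, among them Mrc1, Ctsd and Csf1r, as given above. Some markers of other cells were highest there too, but not all. All 6 plasmacytoid dendritic cell markers with a mean of at least 10 CPM were highest in WT2, with the list summing to 394, 558 and 419.9 CPM. So were 4 of 6 cDC1 markers, among them Clec9a, although the cDC1 list summed to 1762, 1720 and 1890 CPM, lowest in WT2. Of 4 B cell markers with a mean of at least 10 CPM, 1 was highest and 3 were lowest in WT2. The whole macrophage list summed to 609, 1257 and 405 CPM, so that the highest sum was 3.1 times the lowest, against 1.49 times with WT2 left out and 2.06 times with WT3 left out. Fewer macrophages in a sample and less RNA per macrophage cannot be told apart in such libraries, and the part of macrophage RNA in other WT2 differences was not tested.

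Sex-linked genes separated WT2 from the other libraries most sharply. Xist, which silences an X chromosome in female cells, had 190.4, 6614 and 114 CPM. The Y-linked genes had the reverse pattern. Ddx3y had 302, 3.44 and 219 CPM, Eif2s3y 135, 1.19 and 82.5 CPM, Kdm5d 158, 2.12 and 119.5 CPM and Uty 59.96, 1.32 and 41.2 CPM. In the other 2 libraries Xist was low but not at 0. All 5 sex-linked genes had a 2-fold range, against 3.72% of all genes. Every other difference of WT2 described here coincides with this one, and they cannot be told apart within 3 libraries.

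A run of neighbouring genes on chromosome 11 was low in WT2 alone. Cygb, which encodes cytoglobin (chromosome 11, 116645595 to 116654313, mm10), had 273, 15.3 and 281 CPM. The sialyltransferase gene St6galnac2 (chromosome 11, 116675303 to 116694868) had 330.5, 7.93 and 163 CPM, and its relative St6galnac1 (chromosome 11, 116765025 to 116775507) 63.3, 1.06 and 33.7 CPM. Between them BC018473 (chromosome 11, 116752167 to 116759373) had 1316, 12.3 and 542 CPM, from 12227, 93 and 3258 counts, which is 107 times higher in WT1 than in WT2. Mxra7 (chromosome 11, 116803062 to 116828046) had 10.9, 0.264 and 16.1 CPM. In the 182 kilobases from the start of Cygb to the end of Mxra7, all 8 rows were lowest in WT2 and differed beyond counting error, and their sum was 2039, 49.6 and 1087 CPM. The 8 also include a small nucleolar RNA gene and 2 genes of the Gm and Rik type. Of the 5 with a mean of at least 10 CPM, all had a 2-fold range, against 3.72% of all genes. In the 12 rows on either side with a mean of at least 10 CPM, the mean of WT1 and WT3 was 0.662 to 1.8 times the level in WT2. On the side of Cygb, Rhbdf2 had 16.7, 16.5 and 23.3 CPM and Prpsap1 45.4, 45.2 and 45.5 CPM. On the side of Mxra7, Jmjd6 had 34.9, 17.9 and 29.3 CPM, the splicing factor gene Srsf2 354, 356 and 428 CPM, Mfsd11 14.9, 12.4 and 12.1 CPM and Sec14l1 52.3, 50.6 and 45.9 CPM. Klra17 on chromosome 6, which encodes a Ly49 family receptor, had 159.95, 13.2 and 144 CPM and was also low in WT2 alone. This neighbourhood was singled out after its values had been seen, and some of its rows overlap on opposite strands, so their reads may be shared. Sex, macrophage genes and this run of genes all set WT2 apart, and their relation was not tested.

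**Figure D5:**
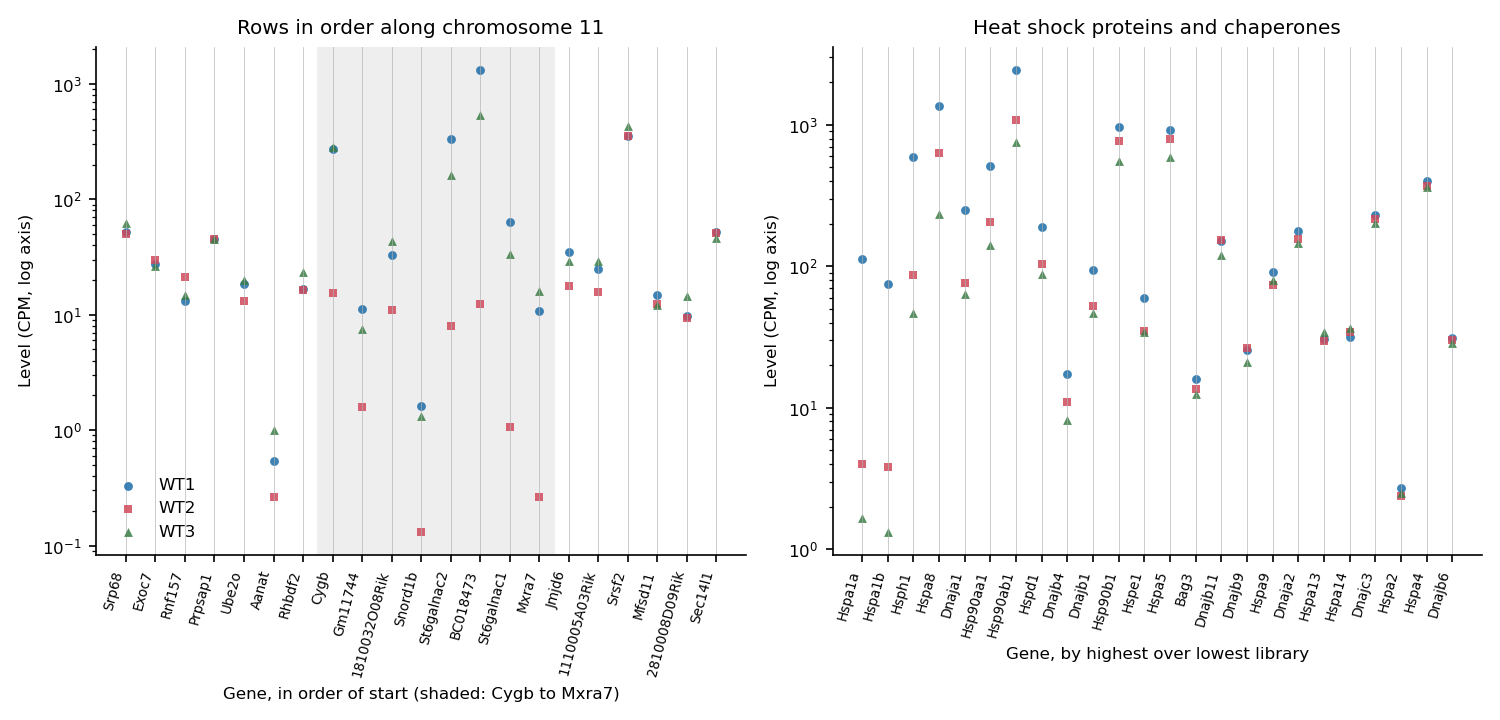
CPM (log axis) in WT1, WT2 and WT3 for rows in order along chromosome 11, with Cygb to Mxra7 shaded, and for the heat shock list ordered by highest over lowest library. In the shaded rows WT2 lies below both other libraries, and at the left of the heat shock panel WT1 lies above both.

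Most genes of the cholesterol and lipid handling list were highest in WT3. Sqle, which acts early in sterol formation, had 12.5, 21.6 and 47.5 CPM. Hmgcs1 and Cyp51, of the same pathway, had 47.04, 70.2 and 91.1 CPM and 55.5, 75.8 and 89.3 CPM. Abca1, which exports cholesterol, ran the other way at 13.9, 25.5 and 6.82 CPM, with WT3 the lowest. The list of 37 genes summed to 1324, 1533 and 1809 CPM, and 9 of 31 members with a mean of at least 10 CPM had a 2-fold range, against 3.72% of all genes. In 24 of the 31 WT3 was the highest library. Apoe, which macrophages also make, had 63.1, 93.2 and 55.9 CPM and Srebf2, the factor that switches on sterol synthesis, 163, 164 and 204 CPM.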

How the data were processed

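RNA of splenic cDC2s was sequenced in 3 wild-type libraries of a series of 9. The deposited table holds raw counts of reads per gene symbol. The submitters' processing notes name STAR, HTSeq, DESeq2 and build mm10 and give no versions, and the library protocol is given only as a standard Illumina one, per the labels. The strand setting of the counting is not given, so reads of overlapping genes on opposite strands cannot be told apart, and reads of near-identical genes (Hspa1a and Hspa1b, MHC class I, ribosomal proteins) may be split or lost. No row has a total under 10 over the 9 libraries, so rows without wild-type counts may have been removed. Source names tied the wild-type columns to their samples, and they number the libraries differently from the titles.

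CPM values were computed with edgeR 4.0.16 TMM factors over the 3 wild-type libraries. Length-scaled levels divide counts by the merged exon length in GENCODE mouse release M21 and scale each library to 1000000. Symbols matched the annotation directly in 12799 cases and through a synonym in 1219, and 191 had no match. Counts were compared between libraries by a chi-square test (scipy) in genes with a mean of at least 1 CPM, with Benjamini-Hochberg adjustment and a threshold of 0.05, and the biological coefficient of variation was estimated with edgeR. Both were tested on simulated data. Values after ± are SDs over 3 libraries. The 2-fold range is a description with no test. Totals of 5875891 to 9581458 counts limit precision: counting alone gives a median SD of 27.5% between 1 and 3 CPM and 1.71% from 300 CPM, and this covers counting error only.

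The genes named are all cDC2 markers, the highest 2 to 4 of each other cell list with its defining markers, the 25 highest by length-scaled level, up to 6 highest and 3 widest of each family described, the 20 widest and the 10 steadiest genes. The rule leaves out ribosomal protein genes, Gm and Rik symbols and pseudogenes. Some genes that it names are not reported here. Genes named beyond it were chosen after their values were seen. The wild-type libraries and the 55 gene lists were chosen with earlier results of these data known. Alternatives were library totals, RLE size factors, other filters, DESeq2 dispersions, the longest transcript as length, Rn45s left out (added after seeing the data, as were the alternatives for list ranges), and each library left out in turn.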

Additional observations from a re-analysis of the deposited data

How the results depend on the processing

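Leaving out each library in turn gave 11384 to 11547 genes at 1 CPM in all libraries, 3206 to 3881 genes beyond counting error, 147 to 189 genes with a 2-fold range, a biological coefficient of variation of 0.17 to 0.178 and 25.3% to 25.7% of counts in the 100 highest rows. The 2-fold count of 313 was 1680 with a mean of at least 1 CPM, 72 with at least 50 CPM, and 325 without Rn45s. Without Malat1, Neat1 and ribosomal protein genes the 100 highest rows took 22.9% of counts. Of the length-scaled level, whose total is then smaller, MHC class II genes took 7.18%, MHC class I 4.26% and the actin list 3.86%. With the longest transcript as length, MHC class I took 3.28%, the actin list 4.05% and ribosomal proteins 4.72%, and no family moved by more than 4 places in the order of 42. With a library left out these shares ran from 6.6% to 6.76% for MHC class II, 3.89% to 4.12% for MHC class I, 3.52% to 3.72% for actin and 4.11% to 4.3% for ribosomal proteins. The highest over lowest sum was 1.37 to 2.41 for heat shock genes, lowest without WT1, 1.49 to 3.1 for macrophage markers, lowest without WT2, and 1.11 to 1.43 for early response genes. Without WT3 the macrophage range was 2.06. Library totals and RLE size factors moved no count above by 1.5 times, and none of the 20 cDC2 marker means by more than its SD. No paired analysis was possible because every result comes from the wild-type libraries alone, with no contrast between groups. With 3 libraries an SD rests on few values, and genes near 1 CPM rest on fewer than 10 counts per library.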

Other observations

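Genes with a 2-fold range between the wild-type libraries were placed on the genome (310 of them), and stretches with at least 3 such genes and gaps under 500 kilobases were listed, a look at the data chosen after the first values had been seen. There were 11 such stretches, and in 5 of them all members had the same lowest library. Besides the run from Cygb to St6galnac1 and the Y chromosome genes, one of these was the chemokine ligand cluster on chromosome 11, with Ccl9 at 30.03, 36.1 and 15.8 CPM, Ccl6 at 13.99, 13.9 and 6.32 CPM and Ccl3 at 43.7, 20.8 and 9.81 CPM. Another held the CD300 family receptor genes Cd300lb at 7.97, 15.7 and 6.48 CPM and Cd300e at 18.5, 18.6 and 8.31 CPM with Tmem104 at 22.1, 36.6 and 16.8 CPM.

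Other wide genes fell outside the families described. Erdr1, which matched no annotated gene, had 1.08, 23.8 and 6.48 CPM, and Abcc3, an organic anion transporter gene, had 2.91, 26.8 and 3.32 CPM. WT2 was the highest library for both. Among ribosomal protein genes Rps3a stood out for its spread at 213, 359 and 329.8 CPM, with WT1 the lowest, although no ribosomal protein gene had a 2-fold range. S100a10, at 34.7, 11.9 and 12.97 CPM, was highest in WT1, and Anxa3, at 57.4, 119 and 86.9 CPM, was highest in WT2.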
